A study of Mus musculus with 8 samples.

Results

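The chaperone genes described here are the heat shock proteins, their DnaJ (HSP40) co-chaperones, the BAG cofactors and alpha-B-crystallin, measured in mouse muscle 7 days after a Gadd45a plasmid or an empty plasmid was introduced. Members were all genes whose symbol in the array annotation begins with Hsp followed by a digit or by a, b, d, e or h, begins with Dnaja, Dnajb or Dnajc, is Bag1 to Bag6, or is Cryab. Each was read from its single-symbol probe set, and where a gene had several, from the one with the highest mean over the 8 arrays. This gave 65 genes of 14860: 6 small heat shock proteins, 11 of the HSP70 and HSP110 family, 2 of the HSP90 family, 4 class A, 11 class B and 23 class C DnaJ proteins, 6 BAG proteins, and Hspb11 and Hspbap1. Those last 2 carry a heat shock symbol but are not chaperones of these families. Hspa8, Hsp90ab1, Hspb1, Hspd1, Hspe1 and Dnajb6 had no single-symbol probe set among the values used and were not analysed here.

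The muscle was the tibialis anterior, whose fibres are mostly fast, taken from male mice 8 weeks old that carry a muscle-specific knockout of ATF4, a stress-responsive transcription factor. The deletion was shared by both groups, and the sources used here do not name what drives the recombinase. The control group was 4 left muscles transfected with empty pcDNA3, and the other group was 4 right muscles transfected with pCMV-FLAG-Gadd45a, in which a viral promoter drives a FLAG-tagged stress protein. Side and plasmid therefore cannot be told apart, nor can Gadd45a and the making of any tagged protein, and muscle with normal ATF4 was not analysed here. The labels do not tie each array to its own mouse, or say which left and right muscles share a mouse. A p-value here covers only the spread between arrays of a group, which holds differences between muscles together with technical ones.

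Heat shock proteins keep other proteins from aggregating and help them fold. HSP70 binds unfolded stretches in a cycle driven by ATP. DnaJ proteins bring clients and trigger ATP hydrolysis, and HSP110 and most BAG proteins speed the release of nucleotide. Small heat shock proteins hold unfolded clients without ATP. In muscle, a small heat shock protein, Hspb8, works with Bag3 and HSP70 to pass damaged filament proteins to autophagy. Many cytosolic members are induced by the heat shock factor Hsf1, and many members of the endoplasmic reticulum (ER) by the unfolded protein response.

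Values are deposited log2 intensities, in which 1 unit is a doubling of signal, and they are compared only within a probe set. Gadd45a itself read 7.85, 7.75, 7.66 and 7.80 on control arrays 1 to 4 and 10.35, 10.18, 10.46 and 10.34 on Gadd45a arrays 1 to 4. The groups were far apart, with a log2 fold change of 2.57 (SE 0.08, limma adjusted p = 7.74e-07). The probe set does not separate plasmid from endogenous RNA. Atf4, the gene deleted in muscle, read from 6.84 to 7.03 with control plasmid and from 7.35 to 7.59 with Gadd45a plasmid, which does not check the deletion. Of 4 measured genes that define skeletal muscle 2 fell, the creatine kinase gene Ckm (-0.51) and the myoglobin gene Mb (-0.78). Acta1, the skeletal actin, averaged 12.20 ± 0.08 and 12.13 ± 0.03 (SD, n = 4 each) and was not called. Neither was the desmin gene Des (0.08, limma adjusted p = 0.622). Of the lists of fibre types and other cells not taken up again below, fast-fibre genes fell in 3 of 10 cases (Mybpc2 by 0.70, Actn3 by 0.54 on the log2 scale), adipocyte genes in 4 of 6 (Adipoq by 0.73, Fabp4 by 0.40) and Schwann cell genes in 1 of 4 (Pmp22 by 0.33). Proliferation genes rose in 6 of 6 (Prc1 by 0.95, Kif11 by 0.91), and of 7 lymphocyte genes 2 rose and 2 fell (Cd3g 0.78, Gzmb -0.96). Among all probe sets 10.8% rose and 10.3% fell.

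Chaperone genes changed individually and in both directions. At an adjusted p under 0.05, 13 of 65 members (20%) were called, against 21.1% of all 16755 probe sets. Of these, 6 (9.23%) rose, against 10.8% of all probe sets, and 7 (10.8%) fell, against 10.3%. These shares lie near the background, so the number of calls is not a result about chaperones. The genes that rose were Hspb8, Hspb3, Hspa2, Hspa4, Dnajc1 and Dnajc18. The genes that fell were Dnajc27, Dnajc28, Dnajb9, Dnajb5, Dnajc12, Hspa12b and Dnajb12. The median log2 fold change was -0.025 over the members and -0.065 over all probe sets, and the median absolute change was 0.159 and 0.173. The groups did not overlap in 20 members (30.8%), against 26.9% of all probe sets.

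**Figure D1:**
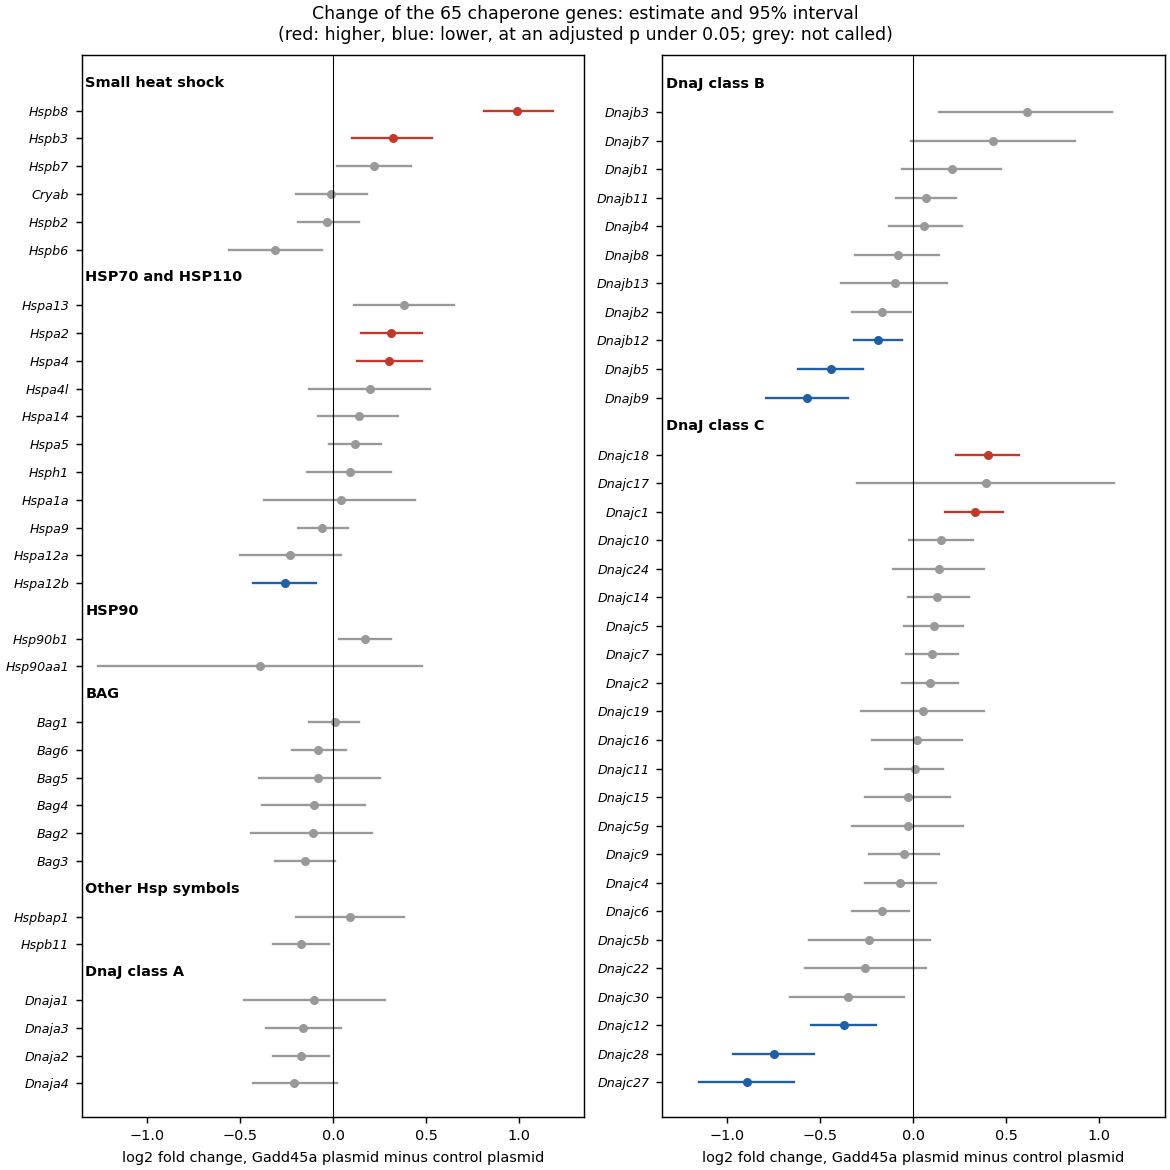
The x axis gives the log2 difference of Gadd45a plasmid from control plasmid for each of the 65 members by class, as a point with its 95% interval from limma. Red marks the 6 members called higher, blue the 7 called lower and grey the 52 that were not called. Hspb8 lies farthest to the right at 0.99 and Dnajc27 farthest to the left at -0.89.

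The small heat shock proteins held the largest change among all members. Hspb8, the partner of Bag3, read 9.76, 9.77, 9.84 and 9.99 on control arrays 1 to 4 and 10.97, 10.72, 10.83 and 10.81 on Gadd45a arrays 1 to 4. Every Gadd45a array lay above every control array by a wide margin. The rise was 1.99-fold (log2 fold change 0.99, SE 0.08, limma adjusted p = 9.57e-05), and it stayed between 0.95 and 1.05 in all 16 alternative fits. Whether more RNA per fibre or more cells of one kind gave such a difference cannot be told apart in whole muscle. The slow-fibre genes moved in the same arrays, but not all 1 way. Of 5 measured 4 rose, led by Casq2 (2.26) and Tnni1 (2.10), and 1 fell, Myl2 (-0.69, limma adjusted p = 0.0248). Their summed linear signal was 1910 to 2500 on control arrays and 3760 to 4290 on Gadd45a arrays. Macrophage genes moved in these arrays too, with 10 of 12 higher, led by Gpnmb (1.52) and C1qa (1.23), and a summed signal of 3730 to 4050 against 5950 to 7120. No measured gene of either list averaged below the 5th percentile of array values. The part of these shifts in the rise of Hspb8 was not tested.

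Hspb3, a small heat shock protein of muscle that assembles with Hspb2, read 7.69, 8.05, 7.85 and 7.76 with control plasmid and 8.06, 8.14, 8.32 and 8.09 with Gadd45a plasmid. The groups only just cleared each other. The rise of 0.32 (SE 0.10, limma adjusted p = 0.0426) lost its call without control 1, 3 or 4 or any 1 of the Gadd45a arrays, and under quantile normalization or cyclic loess, when adjusted p reached 0.102. Hspb2 itself, whose gene neighbours Cryab, had a log2 fold change of -0.03 (95% interval -0.19 to 0.14). Cryab, the alpha-B-crystallin that protects desmin filaments, had one of -0.01 (95% interval -0.20 to 0.18). Hspb7, a small heat shock protein of heart and skeletal muscle, stood at 0.22 (adjusted p = 0.103), and passed the test without Gadd45a 2 (adjusted p = 0.0412). Hspb6, also called Hsp20, read 10.44, 10.46, 10.43 and 10.57 with control plasmid and 10.08, 9.88, 10.35 and 10.35 with Gadd45a plasmid. Its groups did not overlap, but the difference of -0.31 (SE 0.11, limma adjusted p = 0.0729) did not pass. Of the 6 small heat shock genes 2 thus rose (33.3%, against 10.8% of all probe sets), 0 fell and 4 were not called.

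Bag3, which joins Hspb8 to HSP70, was not called. Its values were 8.59, 8.77, 8.66 and 8.63 with control plasmid and 8.52, 8.41, 8.61 and 8.52 with Gadd45a plasmid, and the groups overlapped narrowly. The log2 fold change was -0.15 (95% interval -0.31 to 0.01, limma adjusted p = 0.168), an interval that does not reach that of Hspb8 (0.81 to 1.18). Most BAG proteins are nucleotide exchange factors of HSP70. The other BAG genes gave -0.11 for Bag2, -0.10 for Bag4, -0.08 for Bag5, -0.08 for Bag6 and 0.01 for Bag1. Of the 6 BAG genes 0 were called, against 21.1% of all probe sets. Stub1, the ubiquitin ligase CHIP that works with Bag3 and HSP70, had a log2 fold change of -0.12 (adjusted p = 0.273). Among 5 measured autophagy genes 1 rose (20%, against 10.8% of all probe sets) and 1 fell (20%, against 10.3%). They were Map1lc3a (0.37, limma adjusted p = 0.0381) and Map1lc3b (-0.39, limma adjusted p = 0.012). Sqstm1, the autophagy receptor p62, stood at -0.26 (adjusted p = 0.0762).

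Of the cytosolic members that heat is known to induce, Hspb8 rose, as given above, while Hspa1a, Dnajb1, Hsph1, Dnaja1 and Hsp90aa1 were not called. They are examples and not a complete list. Hspa1a, the inducible HSP70, whose near-identical neighbour Hspa1b the probes may not tell apart, read 6.38, 5.98, 6.29 and 5.76 with control plasmid and 5.86, 6.62, 6.03 and 6.04 with Gadd45a plasmid. The groups overlapped widely, and the log2 fold change of 0.04 had a 95% interval of -0.37 to 0.44. A brighter probe set that names both Hspa1l and Hspa1a, left out for its pair of symbols, stood at -0.28 (limma adjusted p = 0.15), so the estimates for Hspa1a differ in sign and neither passed. Dnajb1, the inducible HSP40, stood at 0.21 (-0.06 to 0.47), and Hsph1, the inducible HSP110, at 0.09 (-0.14 to 0.31). Dnaja1, a cytosolic HSP40, stood at -0.10 (-0.48 to 0.28). Hsp90aa1, the inducible cytosolic HSP90, read from 3.09 to 5.03 and from 2.72 to 3.75. Its mean lay at percentile 5.75 of all probe sets and its spread was the widest among members (within-group SD 0.69), so this probe set says little about the gene. Of 4 measured heat shock factors and regulators 1 rose (25%, against 10.8% of all probe sets). It was Hsf2, with a rise of 0.41 (SE 0.10, limma adjusted p = 0.0184), and Hsf1 was not analysed here. Immediate early genes, which respond to tissue handling, rose in 2 of 10 cases (20%, against 10.8% of all probe sets) and fell in 0 (against 10.3%). In either direction 21.1% of all probe sets were called. The 2 that rose were Egr2 (0.52) and Btg2 (0.43).

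**Figure D2:**
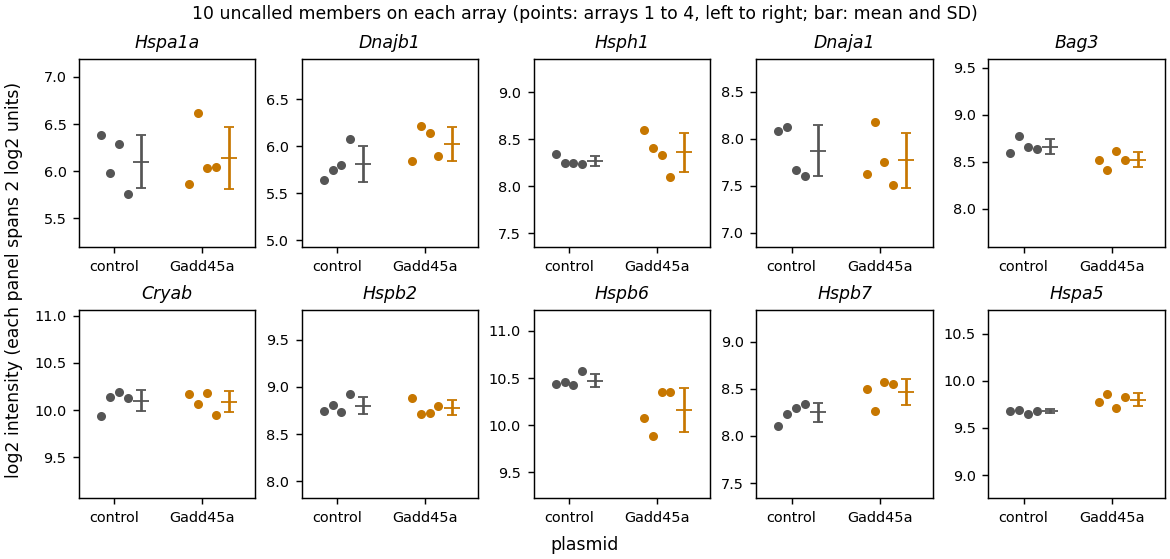
The log2 intensity on the y axis is plotted for 10 uncalled members, each panel spanning the same width, with the 4 control and 4 Gadd45a arrays as points and the mean with SD beside them. The control and Gadd45a points of Hspa1a, Dnajb1, Hsph1, Dnaja1, Cryab and Hspb2 interleave, while those of Hspb6 and Hspa5 do not.

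Promoter letters were set beside these values. Heat shock elements are built from inverted repeats of GAA, and a pair of units (GAANNTTC or TTCNNGAA, each its own reverse complement) was searched in the RefSeq promoters of build GRCm38.p6, from 250 bases before to 50 after the start. A run of 3 alternating units, in which GAA and TTC follow each other with NN between them, was searched on both strands and contains the pairs. The table held 51 of the 65 members, with 67 promoters. Hsp90aa1, Cryab and Hspb2 were among the members it lacked, so they were not searched. A pair occurred in 13 member promoters (19.4%), against 15.1% of all 32851 promoters, and a run of 3 in 2 (2.99%), against 0.603%. Both runs of 3 were in Hsph1, whose promoters overlap. The promoter of Hspb8 (chr5:116422815-116423114, minus strand) is shown because its gene changed most, and that of Hsph1 (chr5:149636287-149636586, minus strand, the first of its 2) because it holds the run of 3. Capitals mark the heat shock units.
Hspb8: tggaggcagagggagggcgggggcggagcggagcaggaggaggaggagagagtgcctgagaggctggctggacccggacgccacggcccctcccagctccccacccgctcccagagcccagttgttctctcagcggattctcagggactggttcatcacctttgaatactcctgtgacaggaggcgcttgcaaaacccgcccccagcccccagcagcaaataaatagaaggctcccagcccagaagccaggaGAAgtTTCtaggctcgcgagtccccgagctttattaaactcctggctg
Hsph1: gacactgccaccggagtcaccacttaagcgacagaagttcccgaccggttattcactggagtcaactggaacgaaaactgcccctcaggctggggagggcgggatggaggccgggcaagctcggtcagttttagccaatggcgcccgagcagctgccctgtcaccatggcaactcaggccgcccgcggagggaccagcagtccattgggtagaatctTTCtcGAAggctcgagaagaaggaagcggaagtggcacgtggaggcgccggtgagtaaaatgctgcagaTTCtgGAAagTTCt
In Hspb8 the pair began at base 3 of the transcript. In Hsph1 the run of 3 began at base 37 of the transcript and a further pair 33 bases before the start. Of the 12 member genes with a pair in a promoter, 2 were called higher (Hspb8 and Hspb3), 1 lower (Dnajc27) and 9 were not called, among them Hsph1, Hspa1a, Bag3 and Hspb6. A match is a description of these letters and not a bound site.

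In the HSP70 and HSP110 family 2 of 11 genes rose (18.2%, against 10.8% of all probe sets), 1 fell (9.09%, against 10.3%) and 8 were not called. Hspa4, an HSP110 protein (Apg-2) that exchanges nucleotide on HSP70, read 9.10, 9.20, 9.16 and 8.98 with control plasmid and 9.51, 9.37, 9.47 and 9.31 with Gadd45a plasmid. The groups were separate, with a rise of 0.30 (SE 0.08, limma adjusted p = 0.0219) that lost its call without control 4, Gadd45a 1 or Gadd45a 3, when adjusted p reached 0.0634. Its relatives Hspa4l (0.20, 95% interval -0.13 to 0.52) and Hsph1 were not called. Hspa2, an HSP70 best known from the testis, rose from 6.004 ± 0.04 to 6.32 ± 0.12 (SD, n = 4 each), by 0.31 (SE 0.07, limma adjusted p = 0.0165). Hspa13, an ATPase of the microsomes, stood at 0.38 (SE 0.12) with an adjusted p of 0.0518, just outside the threshold. It passed without control 3 or Gadd45a 4, with a lowest adjusted p of 0.0225 over the alternatives. Hspa14, a ribosome-associated HSP70, stood at 0.14, and Hspa9, the mitochondrial HSP70 mortalin, at -0.06 (95% interval -0.19 to 0.08).

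Hspa12b, a distant HSP70 relative enriched in endothelium, fell. It read 6.33, 6.09, 6.09 and 6.15 with control plasmid and 5.999, 5.87, 5.87 and 5.88 with Gadd45a plasmid. The groups did not overlap, but the fall of 0.26 on the log2 scale (SE 0.08, limma adjusted p = 0.0391) lost its call without control 1, 2 or 4 or Gadd45a 2, 3 or 4, when adjusted p reached 0.0882. Endothelial genes fell in the same arrays, 8 of 9 measured, among them Tek (-0.58) and Esam (-0.47), and their summed signal was 1310 to 1500 with control plasmid and 1070 to 1110 with Gadd45a plasmid. None of the 9 averaged below the 5th percentile of array values. The part of the endothelial shift in the fall of Hspa12b was not tested. Its relative Hspa12a stood at -0.23 (adjusted p = 0.193).

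DnaJ proteins are 38 of the 65 members. Of these 2 rose (5.26%), 6 fell (15.8%) and 30 were not called, against 10.8% higher and 10.3% lower among all probe sets, and their share of calls in either direction (21.1%) equals that of all probe sets. Dnajc27, a small GTPase of the Rab kind with a J domain, read 6.74, 7.02, 6.86 and 6.98 with control plasmid and 6.12, 5.87, 6.25 and 5.80 with Gadd45a plasmid. All Gadd45a arrays lay below all control arrays, with a 1.86-fold lower signal (log2 fold change -0.89, SE 0.11, limma adjusted p = 0.000655). Dnajc28, a little characterised DnaJ protein, read 7.35, 7.39, 7.18 and 7.10 and then 6.62, 6.30, 6.57 and 6.52. It too was separate, 1.68-fold lower (log2 fold change -0.75, SE 0.10, limma adjusted p = 0.000735). Dnajc12, known in human to help fold the aromatic amino acid hydroxylases, fell by 0.37 (SE 0.08, adjusted p = 0.00932), from values between 6.19 and 6.35 to values between 5.76 and 6.05. These 3 genes kept their calls in all 16 alternative fits. The promoters of Dnajc27 and Dnajc28 are shown because these 2 genes fell most among the members. The promoter table did not hold Dnajc12. That of Dnajc27 (chr12:4082324-4082623, plus strand) has a heat shock pair in capitals that began 213 bases before the start. That of Dnajc28 (chr16:91618950-91619249, minus strand) has none.
Dnajc27: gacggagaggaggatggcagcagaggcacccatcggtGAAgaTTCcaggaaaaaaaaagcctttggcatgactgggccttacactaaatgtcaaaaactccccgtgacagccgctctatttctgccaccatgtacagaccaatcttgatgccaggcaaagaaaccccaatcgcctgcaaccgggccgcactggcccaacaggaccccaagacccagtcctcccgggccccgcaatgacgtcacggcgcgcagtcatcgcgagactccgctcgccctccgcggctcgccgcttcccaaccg
Dnajc28: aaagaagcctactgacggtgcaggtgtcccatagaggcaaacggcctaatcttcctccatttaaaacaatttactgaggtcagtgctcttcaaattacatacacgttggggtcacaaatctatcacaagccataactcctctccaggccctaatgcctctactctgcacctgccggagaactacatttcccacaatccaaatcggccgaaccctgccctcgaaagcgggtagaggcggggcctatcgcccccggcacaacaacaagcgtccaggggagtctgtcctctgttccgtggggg

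Dnajb5, a cytosolic HSP40 known from heart cells to bind the histone deacetylase HDAC4, read 7.94, 7.74, 7.86 and 7.98 with control plasmid and 7.33, 7.47, 7.53 and 7.42 with Gadd45a plasmid. The groups were separate, with a 1.36-fold lower signal (log2 fold change -0.44, SE 0.08, limma adjusted p = 0.00397). The related class B genes Dnajb4 (0.06, 95% interval -0.13 to 0.26) and Dnajb1 were not called. Dnajb2, which binds ubiquitinated clients of HSP70, stood at -0.17 (adjusted p = 0.11). Class A genes, the closest relatives of bacterial DnaJ, all had negative estimates, and 0 of 4 were called, against 21.1% of all probe sets. The largest was Dnaja4, which read 7.40, 7.16, 7.41 and 7.21 and then 7.22, 6.97, 7.23 and 6.92, an overlapping difference of -0.21 (limma adjusted p = 0.163). Dnaja2 had separate groups at -0.17 (adjusted p = 0.106), and mitochondrial Dnaja3 stood at -0.16 (adjusted p = 0.217).

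**Figure D3:**
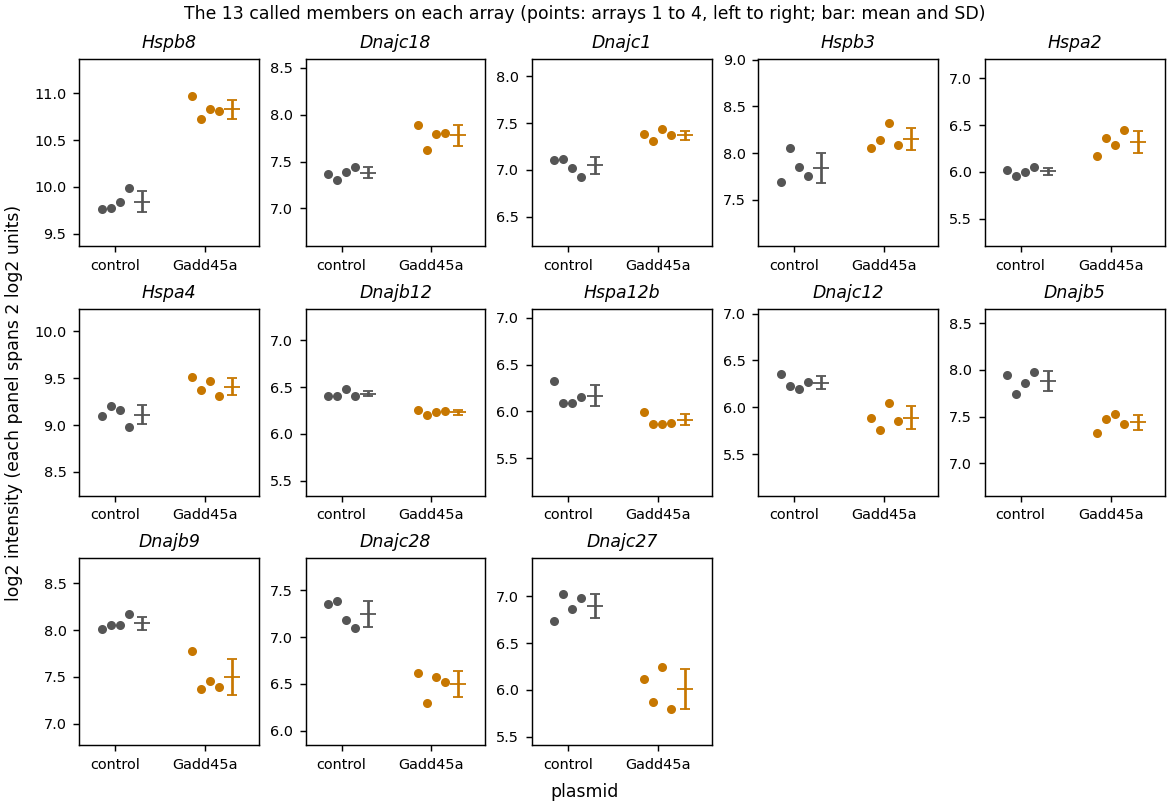
The log2 intensity of the 13 called members is plotted by array, with 4 control and 4 Gadd45a points a panel, the mean with SD beside them, and the same width of y axis in each panel. The panels run from Hspb8, whose Gadd45a points sit between 10.72 and 10.97, to Dnajc27, whose Gadd45a points sit between 5.80 and 6.25.

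The called DnaJ genes of the ER, which were not a class set in advance, went in both directions. Dnajb9 (ERdj4), a BiP partner that serves degradation of misfolded proteins and is a target of the unfolded protein response, read 8.01, 8.05, 8.05 and 8.17 with control plasmid and 7.78, 7.37, 7.46 and 7.39 with Gadd45a plasmid. All Gadd45a arrays were lower, Gadd45a 1 least so, and the signal was 1.48-fold lower (log2 fold change -0.57, SE 0.10, limma adjusted p = 0.0037). Dnajb12, an ER membrane protein with its J domain in the cytosol, fell from 6.43 ± 0.03 to 6.23 ± 0.03 (SD, n = 4 each), a difference of -0.19 (adjusted p = 0.046), a call lost on leaving out any 1 of the 8 arrays, on median centring and with the sample number as a block, when adjusted p reached 0.103. Dnajc18, another membrane-anchored DnaJ protein of the ER, rose from 7.37, 7.30, 7.39 and 7.44 to 7.89, 7.62, 7.79 and 7.80 (log2 fold change 0.40, SE 0.08, limma adjusted p = 0.00554). Dnajc1 (ERdj1), which meets ribosomes at the ER membrane, rose from values between 6.93 and 7.12 to values between 7.31 and 7.44 (log2 fold change 0.33, SE 0.07, limma adjusted p = 0.01). Dnajb11 (ERdj3; 0.07) and Dnajc10 (ERdj5, a disulfide reductase; 0.15) were not called.

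The ER chaperone genes Hsp90b1 and Hspa5 showed small upward differences that did not pass. Hsp90b1, the ER HSP90 called Grp94, read 10.87, 10.89, 10.93 and 10.86 with control plasmid and 11.01, 11.12, 11.04 and 11.07 with Gadd45a plasmid. The groups were separate, and the log2 fold change was 0.17 (SE 0.06, limma adjusted p = 0.0758). It passed in 4 of the 8 alternatives that kept all arrays, with a lowest adjusted p of 0.00964. Hspa5, the ER HSP70 called BiP, also had separate groups, from 9.65 to 9.69 and from 9.71 to 9.86, with a log2 fold change of 0.12 (SE 0.06, limma adjusted p = 0.191). In a list of 17 other measured ER chaperones and stress genes 5 rose (29.4%, against 10.8% of all probe sets) and 0 fell (against 10.3%), with a median of 0.106 (against -0.065). The 5, named after their values were seen, were the disulfide isomerases Pdia6 (0.38), Pdia4 (0.37) and P4hb (0.33), the mannosidase-like Edem1 (0.31) and calnexin, Canx (0.25). Xbp1, the transcription factor that induces Dnajb9, stood at -0.14 (adjusted p = 0.262) and Ddit3, the stress factor CHOP, at 0.07 (adjusted p = 0.472). The RNA levels of Xbp1 and Ddit3 do not measure the activity of these factors. Fibroblast genes, from cells that secrete matrix, rose in 7 of 8 cases in the same arrays, led by Postn (1.83) and Dpt (0.68), with a summed signal of 4910 to 5420 with control plasmid and 6890 to 7660 with Gadd45a plasmid, and their part in these values was not tested.

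The ER stress element (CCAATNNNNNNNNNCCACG or its reverse complement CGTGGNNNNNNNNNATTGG), searched after the values were seen, was found in 2 of the 67 member promoters (2.99%), against 0.119% of all promoters. They were those of Hspa5 (chr2:34771840-34772139, plus strand) and Hsp90b1 (chr10:86705395-86705694, minus strand). The element was defined from ER chaperone promoters such as those of Hspa5 and Hsp90b1, so this contrast of shares was fixed in advance and is not a result. Both are shown with the element in capitals beside that of Dnajb9 (chr12:44210019-44210318, minus strand), which is shown because it is the ER member that fell most and holds none.
Hspa5: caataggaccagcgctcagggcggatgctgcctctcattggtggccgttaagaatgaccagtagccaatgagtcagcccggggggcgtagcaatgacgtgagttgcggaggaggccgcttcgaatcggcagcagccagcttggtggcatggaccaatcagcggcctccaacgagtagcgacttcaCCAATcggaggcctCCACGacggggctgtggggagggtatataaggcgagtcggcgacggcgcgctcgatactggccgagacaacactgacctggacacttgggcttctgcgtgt
Hsp90b1: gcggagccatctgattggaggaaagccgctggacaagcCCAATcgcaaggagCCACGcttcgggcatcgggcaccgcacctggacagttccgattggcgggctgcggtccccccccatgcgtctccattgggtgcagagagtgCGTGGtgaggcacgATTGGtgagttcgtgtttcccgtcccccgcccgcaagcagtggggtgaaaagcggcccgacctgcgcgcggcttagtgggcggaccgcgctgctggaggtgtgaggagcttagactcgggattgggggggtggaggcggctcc
Dnajb9: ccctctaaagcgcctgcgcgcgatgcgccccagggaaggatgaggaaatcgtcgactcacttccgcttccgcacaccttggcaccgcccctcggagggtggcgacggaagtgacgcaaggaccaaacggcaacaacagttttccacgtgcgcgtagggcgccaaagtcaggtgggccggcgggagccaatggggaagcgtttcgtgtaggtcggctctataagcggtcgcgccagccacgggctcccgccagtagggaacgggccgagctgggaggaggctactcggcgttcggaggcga
The element began 65 bases before the start in Hspa5, and 212 and 107 bases before it in Hsp90b1, the second in reverse. Its absence from the Dnajb9 window says only that these letters are not there.

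Mitochondrial and other DnaJ genes were mostly near 0. Dnajc30, a mitochondrial DnaJ protein, read 7.90, 7.72, 7.51 and 7.42 with control plasmid and 7.42, 7.06, 7.53 and 7.13 with Gadd45a plasmid. The groups overlapped, and the difference of -0.35 (SE 0.14, limma adjusted p = 0.0937) did not pass. Dnajc15 (-0.03) and Dnajc19 (0.05), of the import motor of the inner membrane, and Dnajc11 (0.01), of the cristae-organising complex, were not called. Among 14 other mitochondrial chaperones and proteases 1 rose (7.14%, against 10.8% of all probe sets) and 3 fell (21.4%, against 10.3%), with a median of -0.148: the protease Htra2 rose by 0.30, and Clpb (-0.32), Clpx (-0.26) and Spg7 (-0.25) fell, all named after their values were seen. Dnajc5, the cysteine string protein of vesicles (0.11), Dnajc6, the clathrin-uncoating auxilin (-0.17), Dnajc7, which bridges HSP70 and HSP90 (0.10), Dnajc2 of the ribosome (0.09) and Dnajc9, a histone chaperone (-0.05), were not called. A probe set shared by Dnajc3, an ER co-chaperone, and Ccdc58 was left out for its pair of symbols, as were those that name Dnajc8 with Ptafr, Dnajc25 with Gng10, and Dnajc2 with Qrfprl; none of these was called. Dnajc6 and Dnajc7 had groups that did not overlap.

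Several DnaJ genes known mainly from the testis were read by dim probe sets. Dnajb3 and Dnajb7 had log2 fold changes of 0.61 (SE 0.21) and 0.43 (SE 0.20), with mean signals at percentiles 6.18 and 7.21 of all probe sets. Dnajb3 read 3.91, 3.65, 2.86 and 3.11 with control plasmid and 3.94, 4.22, 3.93 and 3.86 with Gadd45a plasmid. Its groups overlapped through control 1, without which, as in 4 of the alternatives with all arrays, its adjusted p of 0.0661 passed the threshold (lowest 0.019), and Dnajb7 (adjusted p = 0.142) passed only without control 2 (0.0454). Dnajc5g, Dnajc5b and Dnajb8 lay at percentiles 4.08, 15.6 and 19.9, with estimates of -0.03, -0.24 and -0.08, and Dnajb13 stood at -0.10. Of the remaining class C genes, Dnajc17 (0.39, 95% interval -0.30 to 1.08), Dnajc22 (-0.26), Dnajc24 (0.14), Dnajc14 (0.13), Dnajc4 (-0.07) and Dnajc16 (0.02) were not called. Neither was Hspb11, a protein of ciliary transport, which read 5.92, 6.01, 5.97 and 5.97 and then 5.69, 5.89, 5.83 and 5.79 in separate groups (-0.17, limma adjusted p = 0.106), or Hspbap1 (0.09).

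Other chaperone systems give the setting for these values. The ring-shaped folding chamber TRiC and its feeder prefoldin had 5 of 13 measured genes higher (38.5%, against 10.8% of all probe sets) and 0 lower (against 10.3%), with a median of 0.209 (against -0.065). The 5, named after their values were seen, were the TRiC subunits Cct3 (0.43, adjusted p = 0.00621), Cct2 (0.42, adjusted p = 0.00192), Cct5 (0.40), Cct4 (0.37) and Cct8 (0.24). Cct2 read from 8.65 to 8.69 on control arrays and from 9.03 to 9.18 on Gadd45a arrays. Of 17 cofactors of HSP90 and HSP70, 3 rose (17.6%) and 2 fell (11.8%), with a median of -0.071. Ahsa2, a relative of an HSP90 activator (0.40, adjusted p = 0.00685), St13, which stabilises HSP70 with its client (0.34, adjusted p = 0.00504), and Stip1, which joins HSP70 to HSP90 (0.25, adjusted p = 0.0284), rose. The immunophilin Fkbp4 (-0.35, adjusted p = 0.00812) and Smyd1, a methyltransferase that works with HSP90 on muscle myosin (-0.23, adjusted p = 0.0381), fell. Unc45b, the myosin chaperone of muscle, stood at -0.10 (adjusted p = 0.395). These 5 were also named after their values were seen, and no difference between lists was tested.

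**Figure D4:**
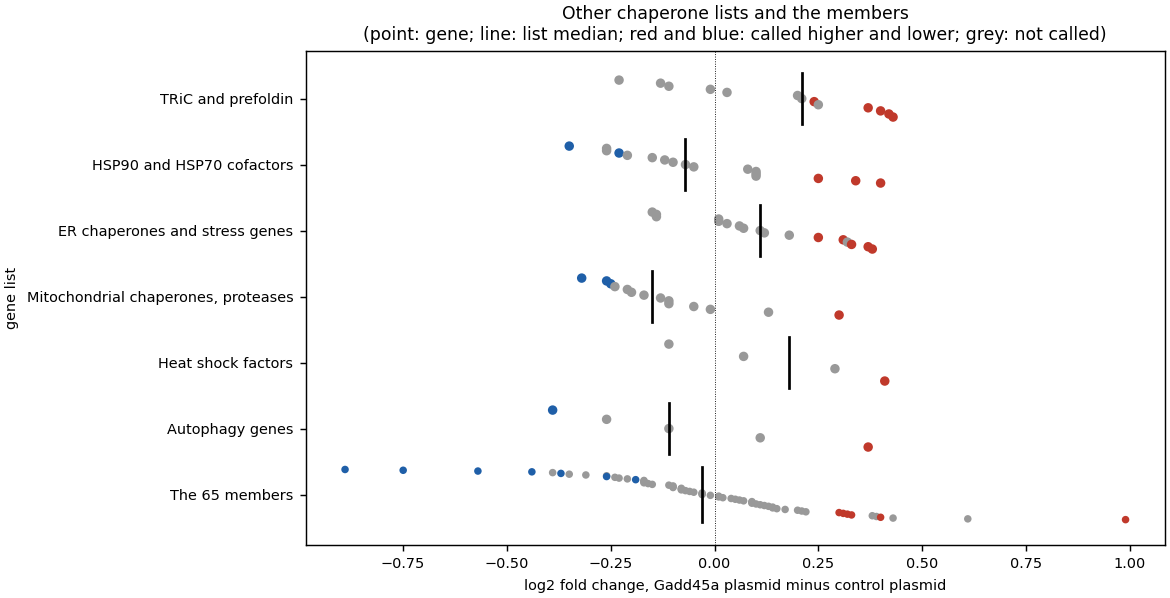
Each point is 1 gene, placed on the x axis by the log2 difference of Gadd45a plasmid from control plasmid, for 6 other chaperone and quality control lists and the 65 members on the y axis, with a line at each median. The median is 0.209 for TRiC and prefoldin, -0.148 for mitochondrial chaperones and proteases and -0.025 for the members, whose points reach farther on both sides than those of the other lists.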

How the data were processed

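RNA of 8 muscles was hybridised to 1 array each, 4 per group. As deposited, each value is a log2 intensity of 1 probe set on 1 array. GCOS, RMA and mm9 are named, with no version, in the submitters' processing notes. By its design RMA removes background, equalises the arrays' distributions and combines probes, and it shrinks small differences of dim probe sets. Array medians ran from 5.852 to 5.919. Precision is limited by the number of arrays.

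All 16755 probe sets were fitted in R 4.3.3 by lmFit and eBayes of limma 3.58.1 (two-sided, without a block), with Benjamini-Hochberg adjustment over all of them and a threshold of 0.05. SE and 95% intervals are moderated. The members and lists were chosen with earlier results of these data known. The fit was tested on simulated data. Every called member, a fixed set of well-known members and the largest change of each class were named; genes of other lists were named as stated.

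Of 66 single-symbol probe sets of members, 1 was a second probe set of Dnajc2; 5 probe sets with several symbols were left out. Gene IDs of all 65 members matched RefSeq, with 0 symbol changes. Promoters came from the RefSeq table of GRCm38.p6, and no other coordinates are given because the deposited data name mm9. Alternatives were a replicate block, other normalizations, a filter on dim probe sets, other variance models, averaging of all probe sets of a gene, and fits without each array in turn.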

Additional observations from a re-analysis of the deposited data

Results flagged for a closer look

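In 7 of 134 groups of 4 arrays (5.22%; chance gives about 1 in 20), 1 array stood apart from the other 3. These were Bag1 on Gadd45a 4 (9.01, the others at 9.07 to 9.08), Dnajb12 on control 3 (6.48, the others at 6.40 to 6.41) and Dnajc14 on Gadd45a 1 (6.98, the others at 7.13 to 7.15). The others were Dnajc17 on Gadd45a 4 (4.58, the others at 5.47 to 5.65), Dnajc5 on control 3 (7.61, the others at 7.40 to 7.43), Hspa12b on Gadd45a 1 (5.999, the others at 5.87 to 5.88) and Hsph1 on control 1 (8.34, the others at 8.24 to 8.25). No array was set apart in more than 2 of these groups.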

How the results depend on the processing

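Over 16 alternatives, 6 to 8 members were higher with all arrays (6 as reported) and 6 to 9 lower (7 as reported). Leaving out 1 array gave 4 to 7 higher and 5 to 6 lower. Of the 13 called members, 9 kept their call in every alternative that could be fitted, and none changed sign. The exceptions were Dnajb12, lost without each of the 8 arrays, with median centring and with the block; Hspb3, lost in 7 of those 8 fits and with quantile normalization and cyclic loess; Hspa12b, lost in 6; and Hspa4, lost in 3. Of the 52 uncalled members 7 passed in some alternative: Hsp90b1, Hspa13, Hspb6, Hspb7, Dnajb3, Dnajb7 and Dnajc30. Another 15 changed sign without passing.

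The members' median log2 fold change, -0.025, was -0.001 with quantile normalization, -0.003 with median centring, -0.003 with cyclic loess, 0.005 without dim probe sets (51 members left), and -0.031 to 0.006 with 1 array left out. The cause was not tested; the median of all probe sets moved from -0.065 to -0.020, -0.043, -0.010 and 0.017 under the first 4. Without dim probe sets 39.2% of those left were called.

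Same-numbered arrays are not stated to share a mouse. Their deviations from the group means correlated at 0.0451 to 0.0971, and each array correlated best with its own number, a hint from the data only. With the replicate block 7 members were higher and 6 lower, and the members' median was -0.025.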
